A study of Rattus norvegicus with 11 samples.

Results

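Small intestine of brain-dead rats was compared with that of ventilated rats that were not brain-dead, over all genes on the arrays. The comparison used 7 of the 11 arrays of the series, chosen by their titles: 4 brain-dead control arrays, numbered 1, 3, 4 and 6 and written here as BD, and 3 non brain-dead ventilated control arrays, numbered 1, 3 and 4 and written as NBD. BD tissue was taken 6 hours after brain death, and NBD rats were anaesthetised and ventilated for 6 hours. The other 4 arrays of the series, from brain-dead rats with vagal stimulation (BD_VNS), entered the statistical model only to help estimate the spread between arrays. The labels describe all rats as transgenic without naming a gene, and the source text of the NBD arrays also mentions BD animals, so the titles were followed. The labels state no strain, age, anaesthetic, steroid treatment or time of day at sampling. Nothing says whether each array is a separate animal, so p-values measure the spread between these samples, which may be technical.

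Brain death ends the output of the brainstem and hypothalamus to the body. The vagus and the hypothalamic control of the pituitary and adrenal glands are lost, and an early surge of catecholamines is followed by low blood pressure and inflammation in the organs. The intestine is lined by enterocytes that absorb sugars, amino acids, lipids and iron, is rich in immune cells, and responds strongly to glucocorticoids, the adrenal steroids. Glucocorticoids act through a nuclear receptor that switches genes such as Fkbp5 and Tsc22d3 on, and they are also a daily time signal for the clocks of peripheral tissues.

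The deposited values are log2 levels of 11427 probe sets after 57 control probe sets were set aside, and 11018 probe sets carry a gene symbol. The median level of an array lay between 7.89 and 7.93 on all 11 arrays. Enterocyte markers averaged 12.46 ± 0.04 (SD, n = 3) in NBD and 12.24 ± 0.11 (SD, n = 4) in BD on the log2 scale, far above the array medians, as the tissue label requires. BD 4 and BD 6 stood apart. The 21 measured genes of pancreatic acinar cells, the cells that make digestive enzymes, averaged 13.03 on BD 4 and 12.31 on BD 6, and between 6.86 and 7.53 on the other 9 arrays. The 4 genes of a pancreatic islet list, chosen after the values were seen, averaged 10.44 on BD 4 and 9.09 on BD 6, and between 7.11 and 7.92 on the others. Calls were therefore made with all BD arrays and with BD 1 and BD 3 alone, and a value given without the arrays behind it comes from all BD arrays. Named genes called with all BD arrays also passed with BD 1 and BD 3 alone unless the text says otherwise. Their adjusted p with BD 1 and BD 3 alone is not printed for every gene. In bulk tissue, fewer cells of a type and less RNA per cell cannot be told apart.

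**Figure D1:**
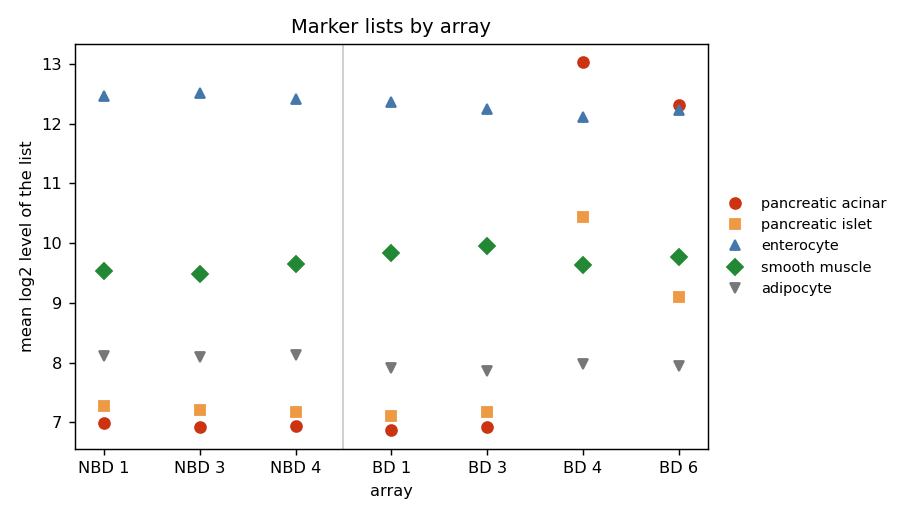
Mean log2 level of 5 marker lists (y axis) on each of the 3 NBD and 4 BD arrays (x axis), one symbol per list. The acinar and islet lists are high on BD 4 and BD 6 and near 7 on the other 5 arrays, while the enterocyte list lies between 12.11 and 12.51 on all 7.

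With all arrays, 655 of 11427 probe sets were called at an adjusted p under 0.05 (5.73%), of which 240 were higher in BD (2.1%) and 415 were lower (3.63%). With BD 1 and BD 3 alone, 293 were called (2.56%), 108 higher (0.945%) and 185 lower (1.62%). Both fits called 273 probe sets in the same direction (2.39%), 98 higher (0.858%) and 175 lower (1.53%). These 273 are 41.7% of the calls with all arrays and 93.2% of the calls with BD 1 and BD 3 alone. Both fits share the NBD arrays, BD 1 and BD 3, so agreement of sign between them is partly built in. Changes were mostly small: of the 273, 3 rose and 18 fell by at least 1 on the log2 scale, and the median size was 0.44. The 4 BD arrays did not overlap the 3 NBD arrays in 271 of the 273, while such a lack of overlap was found in 2336 of all 11427 probe sets (20.4%).

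A further 382 probe sets were called with all arrays but not with BD 1 and BD 3 alone, 142 higher and 240 lower in BD. Their adjusted p with BD 1 and BD 3 alone lay between 0.0504 and 0.273, with a median of 0.113. The median ratio of the change in BD 1 and BD 3 to the change over all arrays was 0.935 for these and 1.011 for the 273; since all of them were chosen in a fit that holds BD 1, BD 3 and the same NBD arrays, these ratios are a description and show no stability. Residual degrees of freedom fell from 8 to 6 and the median standard error rose from 0.058 to 0.067. Single arrays moved these counts by more than 1.5 times. The count called in both fits was 146, 125 and 153 without NBD 1, NBD 3 and NBD 4, 121 and 74 without BD 1 and BD 3, and 443 without BD_VNS 2. With all arrays the count was 332, 317 and 400 without NBD 1, NBD 3 and NBD 4 and 393 without BD 6.

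**Figure D2:**
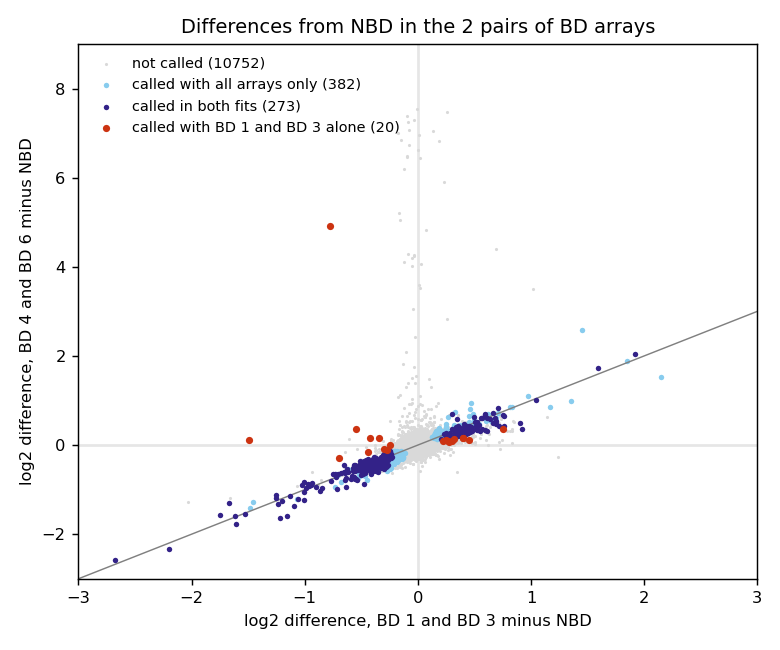
Each point is a probe set; the x axis is its log2 difference between the mean of BD 1 and BD 3 and the mean of NBD, the y axis the same for BD 4 and BD 6, and the line marks equal differences. The 273 probe sets called in both fits and the 382 called with all arrays only lie near the line, while uncalled probe sets near 0 on the x axis reach more than 6 on the y axis.

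Many genes that glucocorticoids induce fell in BD. Of 31 measured genes of the glucocorticoid-induced list, 12 fell and 2 rose with all arrays (45.2%). In both fits 10 fell and 2 rose (38.7%). Such brackets, here and below, give the share of measured members called in either direction. Over all probe sets the share was 5.73% with all arrays and 2.39% in both fits. The glucocorticoid-induced list, like the others below, was chosen with earlier results of these data known, so its counts and median are a description. The list's median log2 difference was -0.19 with all arrays and -0.27 with BD 1 and BD 3 alone, against -0.0064 and -0.0037 for all 11427 probe sets. Array values are given below in the order 1, 3 and 4 for NBD and 1, 3, 4 and 6 for BD, on the log2 scale. Fkbp5, an Hsp90 co-chaperone that lowers the activity of the glucocorticoid receptor and is itself induced by it, read 9.96, 9.33 and 10.09 in NBD and 7.15, 7.07, 7.30 and 7.12 in BD. Sgk1, a kinase that raises sodium uptake by epithelia, read 12.57, 12.40 and 12.48 in NBD and 10.08, 10.49, 9.96 and 10.33 in BD. Every BD array was below every NBD array for both genes. Fkbp5 was 6.2-fold lower (log2 difference -2.63 ± 0.14 SE, adjusted p = 1.25e-06) and 6.41-fold lower with BD 1 and BD 3 alone (adjusted p = 4.26e-05). Sgk1 was 4.82-fold lower (-2.27 ± 0.12, adjusted p = 1.25e-06) and 4.6-fold lower with BD 1 and BD 3 alone (adjusted p = 1.97e-05).

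The other glucocorticoid-induced genes that fell in both fits have varied roles. Slc37a2, a sugar-phosphate transporter of the endoplasmic reticulum, read 10.80, 10.60 and 10.72 in NBD and 8.95, 8.96, 9.24 and 9.04 in BD, 3.16-fold lower (adjusted p = 1.25e-06, and 1.55e-05 with BD 1 and BD 3 alone). Pdk4, the kinase that shuts off pyruvate dehydrogenase and spares glucose, read 8.92, 8.96 and 8.94 in NBD and 7.60, 7.78, 7.97 and 7.68 in BD, 2.27-fold lower (adjusted p = 5.7e-06, and 1.55e-05 with BD 1 and BD 3 alone). Tsc22d3, the leucine zipper protein GILZ that carries part of the anti-inflammatory action of glucocorticoids, fell by 1.13 on the log2 scale (SE 0.09, adjusted p = 4.82e-05), with a difference of -1.06 with BD 1 and BD 3 alone (adjusted p = 0.00123). The groups did not overlap for any of these 3 genes. Sult1a1, a sulfotransferase of phenols, was 2.8-fold lower, Cdkn1a, the cell cycle inhibitor p21, 1.73-fold, and Klf9, a zinc finger transcription factor, 1.57-fold. Hsd11b2, which inactivates glucocorticoids in epithelia that respond to mineralocorticoids, fell by 0.45 and Acsl1, which activates fatty acids, by 0.36 on the log2 scale. With BD 1 and BD 3 alone the adjusted p was 0.00687 for Hsd11b2 and 0.0451 for Acsl1. These 10 genes were called in each of the 11 fits that left out 1 array.

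Not all listed members moved that way. Bcl6, a transcriptional repressor, rose by 0.63 ± 0.09 (adjusted p = 0.00207) and Rhob, a small GTPase, by 0.48 ± 0.07 (adjusted p = 0.00207), and both rose with BD 1 and BD 3 alone. Lcn2 and Map3k6 fell with all arrays only, at adjusted p = 0.0496 and 0.0208, and had adjusted p = 0.0683 and 0.138 with BD 1 and BD 3 alone. Ddit4, a stress-induced inhibitor of mTOR signalling, fell with BD 1 and BD 3 alone: it read 8.88, 8.91 and 9.11 in NBD and 8.25, 8.29, 8.91 and 8.44 in BD, so that BD 4 lay within the NBD range. Its log2 difference was -0.69 ± 0.11 without BD 4 and BD 6 (adjusted p = 0.00841) and -0.49 ± 0.14 with them (adjusted p = 0.0678). Nfkbia, the NF-kB inhibitor that glucocorticoids also induce, averaged 10.09 ± 0.10 (SD, n = 3) in NBD, read 9.96, 9.68, 9.75 and 9.64 in BD and passed in neither fit (adjusted p = 0.105 and 0.342).

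**Figure D3:**
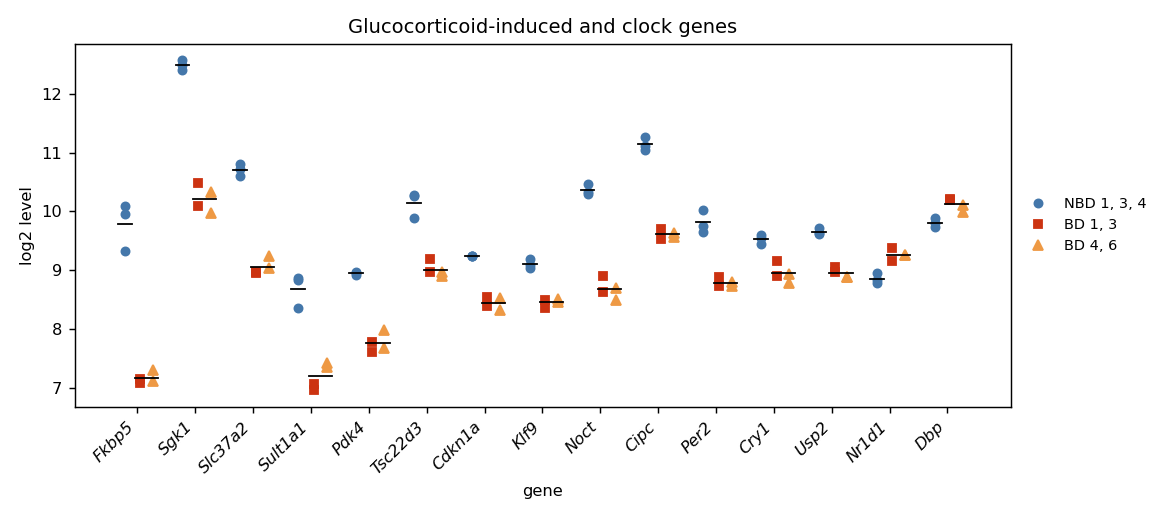
Log2 level (y axis) of 15 glucocorticoid-induced and clock genes (x axis) on each array: circles are NBD 1, 3 and 4, squares BD 1 and 3, triangles BD 4 and 6, and short lines the group means. The BD arrays lie below the NBD arrays for all genes except Nr1d1 and Dbp, where they lie above, and squares and triangles lie close together.

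Clock genes changed in both directions. The circadian clock is a feedback loop in which the Per and Cry proteins repress their own transcription, and Nr1d1 (Rev-erb alpha) and Dbp belong to linked loops. Of 19 measured clock genes, 5 fell and 3 rose with all arrays (42.1%), and 5 fell and 2 rose in both fits (36.8%). Noct, nocturnin, a phosphatase of NADP(H) with a strong daily rhythm, read 10.47, 10.29 and 10.34 in NBD and 8.89, 8.63, 8.48 and 8.69 in BD, 3.23-fold lower (adjusted p = 2.34e-05). Cipc, a repressor that binds CLOCK, read 11.12, 11.04 and 11.27 in NBD and 9.53, 9.70, 9.57 and 9.62 in BD, 2.9-fold lower (adjusted p = 8.23e-06). Per2 read 10.03, 9.65 and 9.75 in NBD and 8.89, 8.73, 8.79 and 8.72 in BD, 2.04-fold lower (adjusted p = 0.00105). For these 3 genes no BD array reached the lowest NBD array. Cry1 fell by 0.59 and Usp2, a deubiquitinase under clock control, by 0.71 on the log2 scale, at adjusted p = 0.000932 and 8.74e-05. With BD 1 and BD 3 alone the adjusted p of these 5 genes ran up to 0.0141, the value of Per2.

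Nr1d1, a nuclear receptor that represses the clock's activator Bmal1, rose by 0.41 ± 0.06 (adjusted p = 0.00218), and Dbp, a transcription factor that binds D-box sequences, by 0.32 ± 0.06 (adjusted p = 0.0145). Their BD arrays lay above all NBD arrays. Dbp passed in 9 of the 11 fits that left out 1 array and not without NBD 1 or NBD 4 (adjusted p = 0.055 and 0.066). Nfil3, which represses at D-boxes, rose by 0.29 with all arrays (adjusted p = 0.0194) and had adjusted p = 0.105 with BD 1 and BD 3 alone. With 1 sampling time per group and no time of day given, a shift of clock phase and a change of level cannot be told apart.

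Promoter sequences of the genes called in both fits were searched for the letters that clock and NF-kB proteins bind. RefSeq promoters of the GRCr8 rat assembly were found for 211 of the 273 genes, and the 250 bases before the start were read on both strands. The windows printed here are those of the clock genes and of the NF-kB and interferon genes described, shown because these are the named members of those groups with a match in them; capitals mark the match and 30 bases on each side are given where the window allows, 5′ to 3′ on the gene's strand.
Per2, D-box, chr9:99497148-99497215, minus strand: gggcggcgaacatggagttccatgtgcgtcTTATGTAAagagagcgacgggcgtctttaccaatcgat
Nr1d1, E-box, chr10:84229610-84229675, minus strand: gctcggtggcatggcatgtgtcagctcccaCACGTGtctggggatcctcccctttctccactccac
Bcl3, NF-kB site, chr1:88613556-88613623, minus strand: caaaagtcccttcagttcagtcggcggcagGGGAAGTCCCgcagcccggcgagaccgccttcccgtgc
Irf1, NF-kB site, chr10:38417840-38417909, plus strand: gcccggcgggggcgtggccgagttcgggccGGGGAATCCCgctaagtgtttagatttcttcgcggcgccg
Tnip1, NF-kB site, chr10:39585008-39585077, minus strand: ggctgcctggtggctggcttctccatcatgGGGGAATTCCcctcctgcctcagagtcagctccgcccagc
Cxcl11, NF-kB site, chr14:15973624-15973693, plus strand: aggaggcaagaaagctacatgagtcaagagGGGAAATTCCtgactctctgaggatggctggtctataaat
The D-box of Per2 begins 192 bases before the start, the E-box of Nr1d1 191, and the NF-kB sites of Bcl3 and Irf1 38 and 65. The first 4 genes printed include 1 that fell, Per2, and 3 that rose, while Tnip1 and Cxcl11 fell.

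The motifs were counted over all promoters in the same way. All promoters are those of 27457 genes, many of them not measured on the arrays, while the called genes come only from measured ones. The shares below are therefore a description and no test of enrichment. The D-box, TTATGTAA, was found in 0.828% of all 33469 promoters, in 1 of the 153 promoters of genes that fell in both fits and in 0 of the 78 of genes that rose. The E-box, CACGTG, stood in 5.59% of all promoters, 8.97% of those of genes that rose and 4.58% of those of genes that fell. NF-kB sites stood in 3.54% of all promoters, 8.97% for genes that rose and 6.54% for genes that fell. The glucocorticoid response element was found in 0.373% of all promoters and in 1 of the 153 promoters of genes that fell, from none of the glucocorticoid-induced genes named above. No motif searched contains another, a match shows no binding, and a window without a match says nothing of sites farther away.

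Iron uptake genes were among the largest rises. Slc11a2, the divalent metal transporter DMT1 that carries iron across the brush border, read 11.10, 10.42 and 9.88 in NBD and 12.06, 12.72, 12.42 and 12.61 in BD. It was the largest rise called in both fits, 3.95-fold (log2 difference 1.98 ± 0.25 SE, adjusted p = 0.000895) and 3.79-fold with BD 1 and BD 3 alone (adjusted p = 0.0131). The lowest BD array was above the highest NBD array, but NBD 1 lay above the other NBD arrays. Cybrd1, the ferric reductase that supplies DMT1, read 11.42, 9.32 and 9.29 in NBD and 11.21, 12.51, 11.62 and 12.16 in BD. Here NBD 1 lay above BD 1, and the 3.64-fold difference passed with all arrays only (adjusted p = 0.0431, against 0.153 with BD 1 and BD 3 alone). The same NBD array was the highest for Slc40a1, the iron exporter ferroportin, at 12.70 against 11.70 and 11.48. Slc40a1 averaged 12.65 ± 0.26 (SD, n = 4) in BD and passed in neither fit (adjusted p = 0.13 and 0.253); it was named after its values were seen.

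The other iron and heme genes were mixed. Of 19 measured iron and heme genes, 4 rose and 1 fell with all arrays (26.3%), and 3 rose and 1 fell in both fits (21.1%). Hmox1, heme oxygenase 1, which breaks heme down and is induced by oxidative stress, read 8.64, 9.06 and 9.02 in NBD and 9.62, 9.71, 9.64 and 9.47 in BD, 1.63-fold higher with no overlap (adjusted p = 0.00313, and 0.0168 with BD 1 and BD 3 alone). Tfrc, the transferrin receptor, rose by 0.49 ± 0.09 (adjusted p = 0.0101, and 0.0472 with BD 1 and BD 3 alone), and not without NBD 3 or NBD 4 (adjusted p = 0.0574 and 0.0512). Slc46a1, the folate and heme transporter, fell by 0.55 ± 0.08 (adjusted p = 0.00172). A marker list of the gut segment is set beside these: the mean of 5 proximal small intestine markers, chosen after values were seen and without iron genes, differed by -0.14 (exact permutation p = 0.0571, 2-sided) and by -0.08 with BD 1 and BD 3 alone. As the list was chosen after values were seen, that p is a description. The labels name no segment of the small intestine, and the part of these markers in the result was not tested.

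Some inflammatory genes rose in BD, led by a chemokine. Of 49 measured cytokine and chemokine genes, 11 rose and 1 fell with all arrays (24.5%), and 5 rose and 1 fell in both fits (12.2%). The list's median log2 difference was 0.09 with all arrays and 0.07 with BD 1 and BD 3 alone. Ccl2, the chemokine that draws monocytes, read 7.58, 7.89 and 7.68 in NBD and 9.59, 9.03, 9.30 and 9.61 in BD. It was 3.17-fold higher (1.67 ± 0.16, adjusted p = 0.000117) and 3.01-fold higher with BD 1 and BD 3 alone (adjusted p = 0.0023). Il1b, interleukin 1 beta, read 8.22, 8.20 and 8.05 in NBD and 8.98, 8.84, 8.85 and 8.81 in BD, 1.64-fold higher (adjusted p = 0.000165, and 0.00223 with BD 1 and BD 3 alone). All BD arrays exceeded all NBD arrays for both. Cxcl16, a chemokine that is also made as a membrane protein, rose by 0.58 ± 0.07 (adjusted p = 0.000553). Ccl21, which guides lymphocytes and dendritic cells into lymphatics, rose by 0.70 ± 0.15 (adjusted p = 0.0179), and not without NBD 3 or NBD 4 (adjusted p = 0.0793 and 0.065). Ccl22, a chemokine of macrophages and dendritic cells named after its values were seen, rose by 0.18 (adjusted p = 0.0197, and 0.0479 with BD 1 and BD 3 alone). It did not pass without NBD 1, NBD 3 or NBD 4 (adjusted p = 0.0895, 0.0535 and 0.057). Cxcl11, an interferon-induced chemokine, fell by 0.55 ± 0.08 (adjusted p = 0.00173).

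Other acute inflammatory genes did not pass or passed in 1 fit. Ccl11, the eosinophil chemokine eotaxin, rose by 0.83 ± 0.15 with all arrays (adjusted p = 0.00649) and had adjusted p = 0.0548 with BD 1 and BD 3 alone, at nearly the same difference of 0.82. Ccl7, which draws monocytes, was 7.20, 6.56, 7.34 and 7.36 in BD against 6.41 ± 0.04 (SD, n = 3) in NBD; BD 3 lay close to NBD, and the adjusted p was 0.0204 with all arrays and 0.128 with BD 1 and BD 3 alone. Cxcl1, a neutrophil chemokine, had a difference of 0.53 (adjusted p = 0.0272) and 0.50 (adjusted p = 0.141). Socs3, which limits cytokine signalling, had adjusted p = 0.0186 and 0.111. Il6, Tnf and Il10 differed by 0.11, 0.14 and -0.08, Cxcl2 and Ptgs2 by 0.05 and 0.04, Sele and Selp by 0.01 and 0.07, and none of these 7 passed in either fit. Their NBD means lay between 5.93 and 6.90 on the log2 scale. Vcam1, an adhesion molecule of endothelium, read 8.03, 8.28 and 8.17 in NBD and 8.81, 8.31, 8.59 and 8.58 in BD, with adjusted p = 0.0937.

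Caspases of the inflammasome rose with Il1b. Casp1, the protease that cuts pro-interleukin 1 beta into its active form, read 11.45, 11.46 and 11.42 in NBD and 12.11, 12.13, 12.00 and 12.09 in BD. Both groups were tight and far apart, and the 1.56-fold rise was the most significant of the rises named (0.64 ± 0.04, adjusted p = 1.07e-05, and 0.000118 with BD 1 and BD 3 alone). Casp4, which senses intracellular endotoxin, read 7.95, 8.05 and 7.83 in NBD and 8.50, 8.77, 8.33 and 8.51 in BD, 1.5-fold higher (adjusted p = 0.00425, and 0.00759 with BD 1 and BD 3 alone). Of 30 measured apoptosis genes, 5 rose and 2 fell with all arrays (23.3%), and 4 rose and none fell in both fits (13.3%). Beside these caspases, the members that rose in both fits were Apaf1, the apoptosome scaffold, by 0.37 ± 0.06 (adjusted p = 0.00258), and Casp6, an executioner caspase, by 0.28 ± 0.06 (adjusted p = 0.0147). Casp6 did not pass without NBD 4 (adjusted p = 0.0632).

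NF-kB and interferon genes rose in part. NF-kB is the transcription factor family that cytokines and endotoxin activate. Of 22 measured NF-kB subunits, targets and feedback genes, 6 rose and 1 fell with all arrays (31.8%). In both fits 3 rose and 1 fell (18.2%). Icam1, the endothelial ligand of leukocyte integrins, read 7.89, 8.01 and 7.80 in NBD and 8.69, 8.45, 8.65 and 8.61 in BD, 1.62-fold higher without overlap (adjusted p = 0.00459, and 0.0464 with BD 1 and BD 3 alone). Bcl3, a nuclear partner of NF-kB whose promoter window is printed above, rose by 0.52 ± 0.08 (adjusted p = 0.0035), and Myd88, the adaptor of Toll-like and interleukin 1 receptors, by 0.24 ± 0.04 (adjusted p = 0.00272). Tnip1, which restrains NF-kB, fell by 0.48 ± 0.06 (adjusted p = 0.000534). Of 28 measured interferon-induced genes, 4 rose and 2 fell with all arrays (21.4%), and 2 rose and 1 fell in both fits (10.7%). The 2 that rose were Irf1, a transcription factor, by 0.51 ± 0.09 (adjusted p = 0.00592) and Gbp2, a guanylate-binding protein, by 0.57 ± 0.09 (adjusted p = 0.00338); the 1 that fell was Cxcl11.

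Marker lists of immune cells are set beside these rises. The mean log2 level of 18 macrophage and monocyte markers was 8.78 ± 0.08 (SD, n = 3) in NBD and 8.81 ± 0.06 (SD, n = 4) in BD, a difference of 0.03 (exact permutation p = 0.657, 2-sided; the smallest p that 3 against 4 arrays allow is 0.0286). The mean of 19 T and NK cell markers differed by 0.02 (exact permutation p = 0.771). The mean of 9 neutrophil markers differed by 0.06 (exact permutation p = 0.314) and that of 17 mast cell markers by 0.05 (exact permutation p = 0.171). The mean of 9 B and plasma cell markers was 8.06 ± 0.04 in NBD and 8.25 ± 0.27 in BD (exact permutation p = 0.286), with BD 1 at 8.64 and the other BD arrays between 8.09 and 8.14. With BD 1 and BD 3 alone these 5 differences were 0.06, 0.04, 0.08, 0.07 and 0.31, in the same order and without a test. No gene of the macrophage or T and NK cell lists was called with all arrays, and 1 macrophage gene, Cd14, rose with BD 1 and BD 3 alone. With 5.73% of all probe sets called with all arrays, lists of 18 and 19 genes without a call are near the background. The part of immune cell numbers in these rises was not tested.

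**Figure D4:**
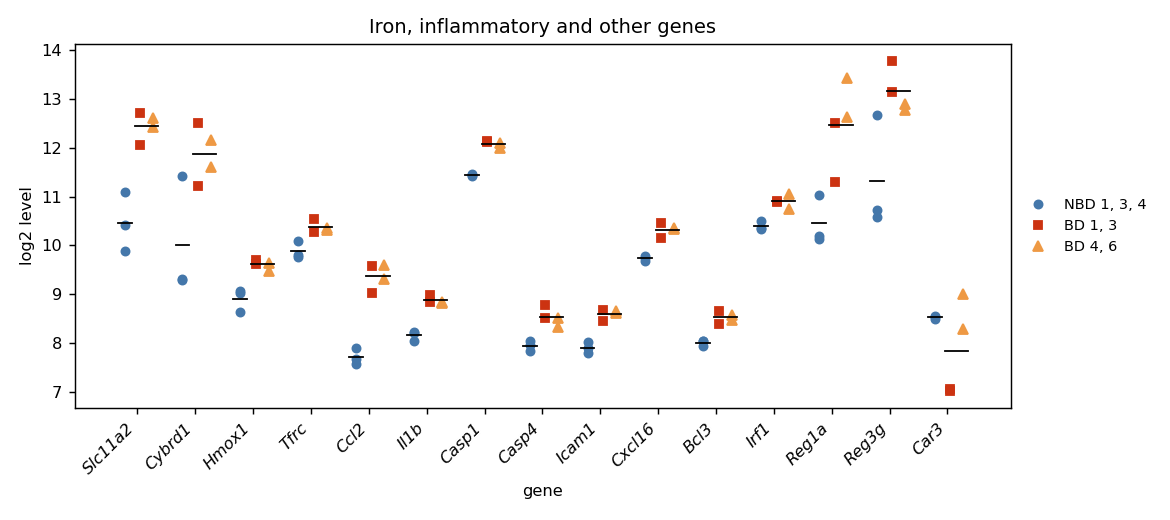
Log2 level (y axis) of 15 iron, inflammatory and other genes (x axis) on each array: circles are NBD 1, 3 and 4, squares BD 1 and 3, triangles BD 4 and 6, and short lines the group means. One NBD array is far above the other 2 for Cybrd1 and Reg3g, and the squares and triangles of Car3 lie on opposite sides of 8.

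Genes of the oxidative stress regulator Nrf2 rose in part. Of 24 measured genes, 3 rose and none fell in either fit (12.5%). The 3 were Hmox1, Nfe2l2, which encodes Nrf2 itself, by 0.47 ± 0.11 (adjusted p = 0.0258), and Gclc, the rate-limiting enzyme of glutathione synthesis, by 0.32 ± 0.08 (adjusted p = 0.0499). Nfe2l2 did not pass without BD 3, BD 6, NBD 3 or NBD 4 (adjusted p = 0.0617, 0.0679, 0.116 and 0.0929). Gclc passed in 1 of the 11 fits that left out 1 array, and BD 4, at 9.16, lay below the highest NBD array at 9.18. The median log2 difference of the Nrf2 list was -0.014 with all arrays and 0.071 with BD 1 and BD 3 alone. Outside this list, Efna1, a membrane ligand of Eph receptors, read 9.05, 9.36 and 9.31 in NBD and 10.26, 10.31, 10.15 and 10.34 in BD, 2.04-fold higher (adjusted p = 0.00709, and 0.0478 with BD 1 and BD 3 alone).

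Part of the absorptive genes fell. Of 19 measured sugar and monocarboxylate transporters, 7 fell and 1 rose with all arrays (42.1%), and 6 fell and 1 rose in both fits (36.8%). Slc5a12, a sodium-coupled carrier of lactate, read 8.73, 8.81 and 8.54 in NBD and 7.72, 7.23, 6.95 and 7.16 in BD, 2.69-fold lower without overlap (adjusted p = 0.000177, and 0.0018 with BD 1 and BD 3 alone). Slc2a2, the basolateral glucose and fructose transporter GLUT2, read 12.59, 12.70 and 12.63 in NBD and 12.45, 12.33, 12.37 and 12.34 in BD, a small fall of 0.27 on the log2 scale (adjusted p = 0.00312). Slc2a9, a urate transporter, fell by 0.57, Slc37a4, the glucose-6-phosphate transporter, by 0.41, and Slc16a10, a carrier of aromatic amino acids, by 0.65 on the log2 scale, at adjusted p between 0.000606 and 0.0038. Slc37a2, already given among the glucocorticoid-induced genes, is the sixth. The gene that rose was Slc16a7, a monocarboxylate carrier, by 0.26 (adjusted p = 0.0129, 0.0551 without NBD 1 and 0.063 with the acinar marker level as a covariate), named after its values were seen.

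Genes of nucleoside, ion and amino acid handling also fell. Slc28a2, which takes up purine nucleosides with sodium, read 12.63, 12.41 and 12.44 in NBD and 11.42, 11.38, 11.11 and 11.13 in BD, 2.35-fold lower without overlap (adjusted p = 0.000553, and 0.0104 with BD 1 and BD 3 alone). Ada, adenosine deaminase, fell by 0.66 ± 0.08 (adjusted p = 0.000427). Of 41 measured ion and water transport genes, 7 fell with all arrays (17.1%) and 3 in both fits (7.32%). These were Slc9a3, the brush border sodium-proton exchanger NHE3, by 0.90 ± 0.14 (adjusted p = 0.00251), Slc13a2, a citrate and succinate carrier, by 0.52 ± 0.05 (adjusted p = 0.000152), and Aqp7, a water and glycerol channel, by 0.79 ± 0.14 (adjusted p = 0.00545). With BD 1 and BD 3 alone their adjusted p was 0.0146, 0.00311 and 0.0451. Of 22 amino acid and peptide transport genes, 6 fell with all arrays (27.3%) and 2 in both fits (9.09%). The 2 were Slc16a10 and Slc3a2, the heavy chain of amino acid exchangers, which fell by 0.68 ± 0.09 (adjusted p = 0.00116). No gene of the ion or amino acid lists rose. Of all probe sets, 2.1% rose with all arrays and 0.858% in both fits, so no rise among 41 and 22 genes is near the background. Of 28 purine and pyrimidine genes, 2 rose and 3 fell with all arrays (17.9%), and 0 rose and 2 fell in both fits (7.14%).

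Some genes of lipid, peptide and xenobiotic handling fell. Of 26 measured genes of lipid absorption, 8 fell and none rose with all arrays (30.8%), and 2 fell in both fits (7.69%). The 2 were Apob, the structural protein of chylomicrons, by 0.54 ± 0.08 (adjusted p = 0.00253), and Acsl1. The list's median was -0.24 with all arrays and -0.16 with BD 1 and BD 3 alone. Of 27 cytochrome P450 genes and partners, 8 fell and none rose with all arrays (29.6%), and 3 fell in both fits (11.1%). Cyp4b1, which oxidises fatty acids and foreign compounds, read 10.30, 10.29 and 10.29 in NBD and 9.34, 8.93, 8.59 and 8.83 in BD, 2.58-fold lower (adjusted p = 0.000171, and 0.00118 with BD 1 and BD 3 alone). Cyp27a1, the sterol 27-hydroxylase, was 1.97-fold lower (adjusted p = 2.98e-05) and Cyp3a9 1.55-fold (adjusted p = 6.87e-05), both without overlap. Of 14 brush border and related hydrolases, 5 fell with all arrays (35.7%) and 1 in both fits (7.14%). The 1 in both fits was Cndp2, a cytosolic dipeptidase, which fell by 0.64 ± 0.09 (adjusted p = 0.00205). Acadm, an enzyme of fatty acid oxidation, fell by 0.42 ± 0.07 (adjusted p = 0.00604), and Acot12, an acetyl-CoA thioesterase, was 2.33-fold lower (adjusted p = 0.00116). With BD 1 and BD 3 alone the adjusted p was 0.0377 for Acadm and 0.0126 for Acot12.

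Beside these groups the enterocyte marker mean differed by -0.22 (exact permutation p = 0.0571). Of 17 enterocyte markers, 6 fell with all arrays (35.3%) and 3 in both fits (17.6%). The median of the enterocyte list was -0.26 with all arrays and -0.16 with BD 1 and BD 3 alone. Goblet and Paneth cell markers were 0.45 higher on average, at 10.16 ± 0.15 (SD, n = 3) in NBD and 10.62 ± 0.10 (SD, n = 4) in BD (exact permutation p = 0.0286, the smallest possible). The median over the 14 genes was 0.02 with all arrays and 0.12 with BD 1 and BD 3 alone, so the median and the mean differ in size, and the only called members, Reg3b and Reg3g, passed with all arrays only. Smooth muscle markers were 9.56 ± 0.09 in NBD and 9.80 ± 0.13 in BD (exact permutation p = 0.0857), and fibroblast markers 0.17 higher (exact permutation p = 0.0286). With BD 1 and BD 3 alone the means of the enterocyte, goblet and Paneth, smooth muscle and fibroblast lists differed by -0.15, 0.38, 0.33 and 0.19, without a test. The part of these shifts in the falls of absorptive genes was not tested. The 3' to 5' ratio of control transcripts, a measure of RNA integrity, was taken as a log2 ratio averaged over Gapdh and beta-actin. On that log2 scale it was 0.765 ± 0.09 in NBD and 0.841 ± 0.053 in BD (exact permutation p = 0.229).

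**Figure D5:**
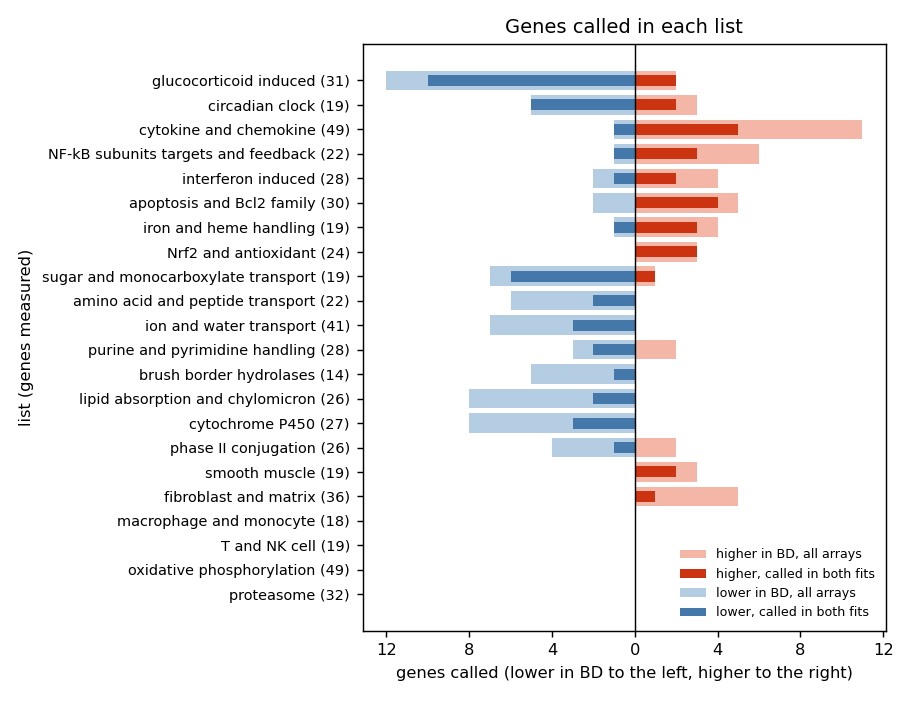
Number of genes called (x axis) in each of 22 gene lists (y axis, with the number measured), lower in BD to the left and higher to the right. Pale bars count calls with all arrays and dark bars calls in both fits; glucocorticoid-induced genes have the longest dark bar, 10 lower, and 4 lists at the bottom have no call.

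Muscle, fat and vessel genes changed in a few members. Of 19 smooth muscle genes, 3 rose with all arrays (15.8%) and 2 in both fits (10.5%). These were Cnn1, calponin 1, by 0.60 ± 0.12 (adjusted p = 0.0131), not without NBD 1 or NBD 3 (adjusted p = 0.0511 and 0.0646), and Des, desmin, by 0.56 ± 0.14 (adjusted p = 0.037). Des read 9.90, 9.87 and 10.08 in NBD and 10.72, 10.66, 10.15 and 10.50 in BD, so BD 4 lay just above NBD, and it passed in 5 of the 11 fits that left out 1 array: not without NBD 1, NBD 3, NBD 4, BD 1, BD 3 or BD 6 (adjusted p between 0.065 and 0.149). Of 10 adipocyte genes, 2 fell in both fits (20%), Aqp7 and Cidec, a lipid droplet protein, which was 1.9-fold lower (adjusted p = 5.74e-05). The mean of the adipocyte list was 8.11 ± 0.02 (SD, n = 3) in NBD and 7.92 ± 0.05 (SD, n = 4) in BD (exact permutation p = 0.0286). Of 15 endothelium genes, 2 rose and 1 fell with all arrays (20%), and 0 rose and 1 fell in both fits (6.67%). The list's median log2 difference was 0.08 with all arrays and 0.07 with BD 1 and BD 3 alone. The gene that fell was Lyve1, the hyaluronan receptor of lymphatic vessels. Lyve1 read 8.73, 8.62 and 9.06 in NBD and 7.88, 7.81, 7.82 and 7.96 in BD, 1.91-fold lower (adjusted p = 0.00135, and 0.0129 with BD 1 and BD 3 alone).

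Some vasoactive and signalling genes changed. Of 21 measured genes of the renin-angiotensin and nitric oxide pathways, 5 fell and 1 rose with all arrays (28.6%). In both fits 3 fell and 1 rose (19%). Agtr1a, an angiotensin II receptor, fell by 0.47 ± 0.06 (adjusted p = 0.00142), Prkg2, a cGMP-dependent kinase of enterocytes, by 0.48 ± 0.07 (adjusted p = 0.00188), and Hsd11b2 is the third. Gucy1b1, a subunit of the nitric oxide receptor, rose by 0.43 ± 0.05 (adjusted p = 0.000508). Of 28 immediate early genes, 2 rose and 3 fell with all arrays (17.9%), and 1 rose and 2 fell in both fits (10.7%). Jun, a subunit of AP-1, fell by 0.50 ± 0.08 (adjusted p = 0.00396), Dusp6, a phosphatase of ERK, by 0.85 ± 0.17 (adjusted p = 0.0123, 0.0538 without NBD 1 and 0.0681 with the acinar marker level as a covariate), and Ier5 rose by 0.36 ± 0.06 (adjusted p = 0.00338). With BD 1 and BD 3 alone the adjusted p of Jun, Dusp6 and Ier5 was 0.0411, 0.0486 and 0.0139.

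Several genes outside these lists changed by as much. Tmem86a, an enzyme of lysoplasmalogen breakdown, read 11.12, 11.44 and 11.36 in NBD and 10.24, 9.15, 9.82 and 9.61 in BD, 3.04-fold lower (adjusted p = 0.0021, and 0.0207 with BD 1 and BD 3 alone). Mapk6, the atypical kinase ERK3, read 11.12, 11.23 and 11.25 in NBD and 9.99, 9.95, 9.82 and 9.94 in BD, 2.42-fold lower (adjusted p = 1.25e-06, and 3.43e-05 with BD 1 and BD 3 alone). Cdc37l1, a co-chaperone of Hsp90, read 8.71, 8.55 and 8.69 in NBD and 7.50, 7.54, 7.50 and 7.50 in BD, and its 2.21-fold fall had the smallest adjusted p of the genes named with all arrays (7.24e-07, and 1.97e-05 with BD 1 and BD 3 alone). In all 3 the groups were well apart. Cd59b, an inhibitor of the complement membrane attack complex, was 2.35-fold lower (adjusted p = 5.41e-05), Gramd1b, a sterol carrier, 2.17-fold (adjusted p = 5.74e-05) and Fads3, a desaturase, 1.94-fold (adjusted p = 0.000898). With BD 1 and BD 3 alone the adjusted p of Cd59b, Gramd1b and Fads3 was 0.000564, 0.00118 and 0.00565. Among the rises were Mpv17, a mitochondrial inner membrane protein, by 0.77 ± 0.13 (adjusted p = 0.00468), S100a3, a calcium-binding protein, by 0.64 ± 0.10 (adjusted p = 0.00291), Adh4, an alcohol dehydrogenase, by 0.61 ± 0.11 (adjusted p = 0.00553), and Cfi, complement factor I, by 0.61 ± 0.11 (adjusted p = 0.00624). Fbxo25, a ubiquitin ligase subunit, and Snx7, a sorting nexin, rose by 0.59 and 0.58. Gjb2, connexin 26, read 9.71, 9.68 and 9.80 in NBD and 10.80, 10.50, 10.12 and 10.09 in BD; it rose by 0.65 ± 0.15 (adjusted p = 0.025), and not without BD 3, NBD 1, NBD 3 or NBD 4 (adjusted p between 0.0613 and 0.0991). Adh7 rose by 0.61 ± 0.12 (adjusted p = 0.0145), and not without NBD 1 or NBD 3 (adjusted p = 0.055 and 0.0728). With BD 1 and BD 3 alone the adjusted p was 0.0495 for Mpv17, 0.0413 for Adh4, 0.0414 for Adh7 and 0.0354 for Cfi. That of S100a3, Snx7, Fbxo25 and Gjb2 lay between 0.0018 and 0.0207.

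Among the changes called with all arrays only, the largest were in genes whose arrays spread widely. Reg1a, a secreted lectin of the regenerating family that the pancreas also makes, read 11.03, 10.14 and 10.20 in NBD and 11.29, 12.51, 13.42 and 12.64 in BD. Its highest BD arrays were BD 4 and BD 6, and its 4.03-fold rise (adjusted p = 0.0117) became 2.73-fold with BD 1 and BD 3 alone (adjusted p = 0.063). Reg3g, an antibacterial lectin of the epithelium, read 12.67, 10.72 and 10.58 in NBD and 13.15, 13.79, 12.90 and 12.78 in BD, with adjusted p = 0.0448 with all arrays and 0.0919 with BD 1 and BD 3 alone. NBD 1 stood far above the other NBD arrays and lay just below the lowest BD array. Reg3b, a related lectin, read 13.79, 12.41 and 12.21 in NBD and 14.04, 14.26, 13.77 and 13.82 in BD, so NBD 1 lay above BD 4 (adjusted p = 0.0498 and 0.107).

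Other rises called with all arrays only were Nadk2, the mitochondrial NAD kinase, at 2.06-fold, Ugt2b7, a glucuronosyltransferase, at 2.01-fold, Egr1, an immediate early transcription factor, at 1.79-fold and Ankh, a pyrophosphate transporter, at 1.65-fold. With BD 1 and BD 3 alone they differed 1.97-, 2.25-, 1.78- and 1.64-fold, at adjusted p of 0.112, 0.0538, 0.0928 and 0.102. Falls called with all arrays only were led by Cubn, the receptor for vitamin B12 with intrinsic factor, which read 8.17, 8.98 and 8.27 in NBD and 7.54, 6.43, 7.31 and 6.79 in BD (adjusted p = 0.0385, and 0.129 with BD 1 and BD 3 alone). Car4, a membrane carbonic anhydrase, read 8.22, 9.60 and 9.49 in NBD and 8.15, 7.14, 7.99 and 7.64 in BD (adjusted p = 0.0465 and 0.135), and Apoc2, the cofactor of lipoprotein lipase, 10.12, 10.57 and 10.98 in NBD and 10.11, 8.87, 9.45 and 9.27 in BD (adjusted p = 0.0292 and 0.143). NBD 1 and BD 1 nearly met in Car4 and Apoc2. The mean of 8 distal small intestine markers, Cubn among them and chosen after values were seen, was 8.06 ± 0.13 (SD, n = 3) in NBD and 7.70 ± 0.14 (SD, n = 4) in BD (exact permutation p = 0.0286). Because the list was chosen that way and holds Cubn, that p is a description and no support for a difference of segment. The part of the list in these falls was not tested.

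The remaining named falls of that kind are given for both fits, which share BD 1, BD 3 and the NBD arrays, so the differences show no stability. Agpat4, Sec14l2, Slc39a14, Naaladl1, Gpcpd1, Cyp3a18 and Abhd2 differed by -0.83, -0.75, -0.69, -0.68, -0.64, -0.61 and -0.59 with all arrays and by -0.73, -0.68, -0.71, -0.72, -0.53, -0.52 and -0.50 with BD 1 and BD 3 alone. Their adjusted p with BD 1 and BD 3 alone lay between 0.0513 for Sec14l2 and 0.175 for Agpat4. None of the 7 had overlapping groups, which follows mostly from the call: only 6 of the 655 probe sets called with all arrays overlapped. Of all probe sets, 20.4% did not overlap. Of the 25 named genes called with all arrays only, Ccl11, Sec14l2 and Abhd2 were called in all 11 fits that left out 1 array. Reg3g and Reg3b passed in 2 of these 11 fits, Cubn in 3, Cybrd1 and Car4 in 4 and Reg1a in 9, and all 6 failed without NBD 3 and without NBD 4.

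Leaving out BD 4 and BD 6 added 20 calls, 10 higher and 10 lower, and none of them was called in the opposite direction with all arrays. Both fits share BD 1, BD 3 and the NBD arrays, so this is partly built in. These 20 passed with BD 1 and BD 3 and failed once BD 4 and BD 6 were added. Differences between the 2 pairs of BD arrays therefore follow largely from how the 20 were chosen. Car3, a cytosolic carbonic anhydrase abundant in fat and muscle, read 8.55, 8.49 and 8.54 in NBD, 7.01 and 7.05 in BD 1 and BD 3, and 9.01 and 8.29 in BD 4 and BD 6. It was 2.82-fold lower with BD 1 and BD 3 alone (adjusted p = 3.57e-07), where both BD arrays lay far below NBD, and had adjusted p = 0.369 with all arrays, which overlapped. Pnliprp2, a pancreatic lipase-related protein and 1 of the 21 acinar genes, averaged 8.19 ± 0.18 (SD, n = 3) in NBD and read 7.37 and 7.45 in BD 1 and BD 3, and 13.56 and 12.66 in BD 4 and BD 6. It fell by 0.78 ± 0.09 with BD 1 and BD 3 alone (adjusted p = 0.00247), and its difference was 2.07 ± 1.28 with all arrays (adjusted p = 0.427). Scd, a fatty acid desaturase, fell by 0.55 ± 0.11 with BD 1 and BD 3 alone (adjusted p = 0.024) and read 8.30 on BD 4, above all NBD arrays. Glyat, a glycine acyltransferase, fell by 0.44 ± 0.07 with BD 1 and BD 3 alone (adjusted p = 0.0109). The rises among those named were Fam3d, Cd14, Adh1c, Sh3bgrl1 and Ewsr1, by 0.75, 0.46, 0.40, 0.40 and 0.32 with BD 1 and BD 3 alone. Each of these 5 had a mean of BD 4 and BD 6 nearer to NBD than that of BD 1 and BD 3. This follows mostly from how they were chosen and is a description.

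Several gene groups had no call. None of 49 measured oxidative phosphorylation genes, 32 proteasome genes, 28 ABC and organic ion transporters, 22 enteric neuron and glia genes or 18 adrenergic and catecholamine genes passed limma's adjusted p in either fit. At an unadjusted p under 0.05 with all arrays these lists held 1, 1, 4, 0 and 2 genes, while 18.8% of all 11427 probe sets passed that threshold. With 5.73% of all probe sets called, a list of about 20 genes without a call is near the background. The list medians were -0.04, -0.031, -0.008, -0.01 and -0.024 with all arrays and 0.028, 0.021, 0.005, -0.01 and -0.045 with BD 1 and BD 3 alone, so the first 3 changed sign.

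For the leading genes the BD_VNS arrays are given beside these values, without a test, since they would be compared with the same NBD arrays. Fkbp5 averaged 7.27 and Sgk1 10.21 in BD_VNS, near the BD means of 7.16 and 10.22, and Slc11a2 averaged 12.76 against 12.45. Ccl2 averaged 8.28 in BD_VNS against 9.38 in BD and 7.72 in NBD, and Il1b 8.17 against 8.87 and 8.16. The macrophage and monocyte marker mean was 8.30, 8.56, 8.30 and 8.07 on BD_VNS 1 to 4, against a mean of 8.81 in BD. The 3' to 5' ratio was 1.04, 0.75, 1.03 and 1.10 on BD_VNS 1 to 4, against a mean of 0.84 in BD. The part of cell content and RNA integrity in the BD_VNS values was not tested.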

How the data were processed

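Total RNA of small intestine was hybridised to Affymetrix arrays after biotin labelling, per the labels' protocols. The authors deposited 1 table of log2 values for 11 arrays; its normalization and summary method are not named in the labels or the header, and the log2 scale was read from the range of the values. Gene symbols came from the platform annotation of the probe sets. Of the Entrez numbers, 10996 were found in the RefSeq gene table, and no symbol changed.

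All 11427 probe sets were fitted with limma 3.58.1 in R 4.3.3 (lmFit, eBayes, 1 mean per group, 11 arrays), and p-values were adjusted by Benjamini-Hochberg over all of them. The fit was repeated on 9 arrays, without BD 4 and BD 6. A probe set was called at an adjusted p under 0.05, and called in both fits when both had the same sign. Marker means over lists were compared with a 2-sided exact permutation test. The smallest p that test allows is 0.0286. Scripts were tested on simulated data. Lists and named genes were chosen with earlier results of these data known. Genes named were the 20 largest rises and 20 largest falls called in both fits without overlap, the 10 largest of each called with all arrays only, the 5 largest of each called with BD 1 and BD 3 alone, leading members of each list described, and 15 fixed inflammatory genes; Slc40a1, Slc16a7 and Ccl22 were added after their values were seen. No 2 arrays held identical values. Array number limits the precision, and arrays of the same number in NBD and BD did not deviate together (correlations -0.157, -0.021 and -0.013), so the numbers were not used as pairs.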

Additional observations from a re-analysis of the deposited data

Results flagged for a closer look

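Of 130 named genes and 19 array measures, the marker means and the 3' to 5' ratio, tested for 1 sample far from the rest of the BD arrays, 4 were flagged. Chance alone picks out about 1 in 20 groups, so 4 flags are no more than chance would give. The number given is the gap to the nearest array divided by the range of the 4 arrays. Scd on BD 4 (0.856) read 8.30 against 6.67 to 6.91 on the other BD arrays. Rhob on BD 4 (0.885) read 8.96 against 9.14 to 9.17. Hsd11b2 on BD 3 (0.92) read 7.66 against 7.80 to 7.81. The B and plasma cell marker mean on BD 1 (0.914) was 8.64 against 8.09 to 8.14.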

How the results depend on the processing

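Counts are given here in the order all arrays, BD 1 and BD 3 alone, and both fits, against 655, 293 and 273. Array weights gave 1642, 958 and 785, an adjusted p under 0.10 gave 1036, 543 and 474, and a log2 change of at least 1 gave 30, 24 and 21. The replicate block gave 363 with all arrays, where the same numbers carry no shown pairing, and stayed within 1.5 times for the other counts. Fitting only the 2 groups gave 496 with BD 1 and BD 3 alone. Adjusting for the 3' to 5' ratio gave 511 with BD 1 and BD 3 alone and 423 in both fits. The acinar level as a covariate gave 370 with all arrays, and leaving out BD 4 and BD 6 gave 293. Leaving out 1 array gave 317 to 882, 108 to 522 and 74 to 443; where it left 1 BD array, that array was assumed to vary like the other groups. Both filters on dim probe sets, median centring, quantile normalization and a robust variance with trend stayed within 1.5 times. The causes were not tested. The median difference over all probe sets lay between -0.0238 and -0.0037 under the scalings tried, against -0.0064. Of 85 named genes called in both fits, 71 kept their call over up to 22 alternatives each, leaving aside the other thresholds. Of 60 lists, 30 kept their count of calls within 1.5 times without BD 4 and BD 6, but these include lists with no call in either fit. The count fell in 35 lists and rose in 3. Signs turned for Cxcl2 (-0.03 with the acinar covariate, -0.035 without BD 4 and BD 6), Sele (-0.006 with median centring, -0.025 with the acinar covariate, -0.021 without BD 4 and BD 6, -0.024 to 0.047 leaving out 1 array), Pnliprp2 (-0.709 with the acinar covariate, -0.778 without BD 4 and BD 6) and Scd (-0.478 to 0.065 leaving out 1 array). Marker means without BD 4 and BD 6, added after seeing the data and not tested, turned sign for the acinar (-0.055), islet (-0.074), enteric neuron and glia (0.007) and blood (-0.027) lists.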
